A study of Mus musculus with 6 samples.

Results

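The genes described here encode proteins that copy DNA and divide the cell. They were taken from the count table by symbol, from a list of 34 names, and all 34 were among its 20199 genes. The RNA came from smooth muscle cells of the aorta, which contract the vessel wall, taken from C57B6 mice 12 weeks old. The knockout group (labelled miR21 -/-) had 3 libraries of genotype miR-21fl/flmTmG/Myh11ERT2, and the control group (called wild type here) had 3 libraries of genotype WT/mTmG/ Myh11ERT2. Both groups thus carried mTmG, a fluorescent reporter of Cre activity, and Myh11ERT2, an inducible driver under the smooth muscle myosin gene, and in the knockout the floxed miR-21 alleles were added. The sources used here do not state an inducer, the isolation or culture of the cells, or whether libraries stand for separate animals. For that reason a p-value here reflects only how these libraries vary, in part perhaps technically. Loss of miR-21 itself was not checked here.

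Before a cell divides, origins of replication are licensed by loading the MCM helicase, a ring of 6 related subunits, with the help of Cdc6 and Cdt1. During S phase the sliding clamp PCNA holds the polymerases on DNA, and ribonucleotide reductase, thymidylate synthase and thymidine kinase supply the nucleotides. Cyclin B with Cdk1 then drives mitosis, in which the kinases Plk1, Aurora A and Aurora B, spindle motors and the anaphase-promoting complex separate the chromosomes. In resting cells repressor complexes keep these genes low, through E2F sites in many replication genes and through the cell cycle homology region (CHR) in many mitotic genes. Smooth muscle cells of the healthy adult aorta rarely divide, and these genes are commonly read as a measure of how many do.

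The promoter sequences show these 2 classes of gene, and 4 are printed for the contrast between them. RefSeq windows on GRCm38.p6, running from 250 bases before the start to 50 after it, were matched for 27 of the 34 genes. Capitals mark matches on either strand to an E2F motif (TTTCCCGC, TTTCGCGC, TTTGCCGC or TTTGGCGC), to a CHR (TTTGAA or TTCGAA) or to CCAAT, the box bound by the factor NF-Y. Matches that overlap each other, as an E2F match on one strand can with one on the other, appear as 1 run. Mcm6 lies at chr1:128359656-128359955 (minus strand), Mcm5 at chr8:75109259-75109558 (plus), Ccnb2 at chr9:70421505-70421804 (minus) and Cdc20 at chr4:118437294-118437593 (minus).
Mcm6: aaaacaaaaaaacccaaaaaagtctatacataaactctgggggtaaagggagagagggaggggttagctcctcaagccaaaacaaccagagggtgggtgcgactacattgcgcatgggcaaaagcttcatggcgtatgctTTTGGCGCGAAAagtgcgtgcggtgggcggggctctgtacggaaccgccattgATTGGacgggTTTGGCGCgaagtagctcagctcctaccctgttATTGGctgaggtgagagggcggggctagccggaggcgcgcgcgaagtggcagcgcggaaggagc
Mcm5: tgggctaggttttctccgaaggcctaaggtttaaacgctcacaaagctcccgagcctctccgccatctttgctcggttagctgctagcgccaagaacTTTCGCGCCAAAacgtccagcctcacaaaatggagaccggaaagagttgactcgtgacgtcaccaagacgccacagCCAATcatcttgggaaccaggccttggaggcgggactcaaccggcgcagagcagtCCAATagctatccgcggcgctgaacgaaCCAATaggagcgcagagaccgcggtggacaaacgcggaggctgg
Ccnb2: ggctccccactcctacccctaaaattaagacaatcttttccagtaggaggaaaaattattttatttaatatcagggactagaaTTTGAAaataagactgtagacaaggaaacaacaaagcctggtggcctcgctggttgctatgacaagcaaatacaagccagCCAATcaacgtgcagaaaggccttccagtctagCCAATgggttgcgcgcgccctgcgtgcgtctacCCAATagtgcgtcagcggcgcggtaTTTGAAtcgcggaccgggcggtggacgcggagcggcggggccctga
Cdc20: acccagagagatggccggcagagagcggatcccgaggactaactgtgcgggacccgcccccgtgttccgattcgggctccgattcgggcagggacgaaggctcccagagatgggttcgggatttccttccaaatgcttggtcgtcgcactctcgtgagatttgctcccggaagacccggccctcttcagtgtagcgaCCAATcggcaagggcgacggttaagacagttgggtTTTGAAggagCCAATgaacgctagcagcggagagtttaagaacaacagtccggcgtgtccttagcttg

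Among 12 replication genes with a window, 6 (50%) held an E2F match and 2 (16.7%) a CHR match. Among 15 cell division genes 1 (6.67%) held an E2F match and 12 (80%) a CHR match. Over 10108 tested genes with a window the shares were 4.51% for E2F and 15.9% for CHR. CCAAT occurred in 8 of the 12 replication genes (66.7%) and 13 of the 15 cell division genes (86.7%), against 42.8% of tested genes. In the windows above, E2F matches in Mcm6 began 110 and 47 bases upstream of the start, the first overlapped by another on the opposite strand. The CHR of Cdc20 began 18 bases upstream, between CCAAT boxes at 53 and 8 bases upstream. A match is a description of the letters and shows no binding.

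Libraries held from 17123748 to 28610649 counts. Levels are given as counts per 1000000 (CPM) scaled by TMM factors, which correct library totals for composition. A count of 10 stood for 0.35 to 0.594 CPM, and 3 counts for 0.105 to 0.178 CPM. The cells carried their labelled identity, with 8 smooth muscle markers summing to 43650 to 44730 CPM in knockout and 42250 to 48610 CPM in wild type. Red cell and marrow markers (5 of 6 matched, chiefly the globin genes Hbb-bs and Hba-a1) summed to 582 to 704 CPM in knockout and 271 to 836 CPM in wild type. The 3 lymphocyte and granulocyte markers matched, of 9 listed, each had a mean under 1 CPM. Of 9 macrophage markers in the table, 6 had a mean under 1 CPM, among them Ptprc, Adgre1 and Csf1r, as had 7 of 10 endothelial markers, among them Cdh5 and Kdr, while Erg averaged 40.4 CPM and Pecam1 33.5 CPM over the 6 libraries. Wild-type replicate 1 was the library least like the others, with a Pearson correlation of log2 CPM across genes (not independent replicates) of 0.961 to 0.971 to each, where all other pairs lay at 0.98 to 0.986. It also had the lowest red cell and marrow sum, 271 CPM, against at least 582 CPM in each other library. Each of the library pairs differed by more than counting noise (chi-square per gene of at least 14).

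Most of the mitotic genes were at the edge of detection, while most replication genes were measured well. Of the 34 members, 27 (79.4%) passed the default expression filter of edgeR, as did 75.2% of all genes in the table. Since 20198 of its 20199 genes had counts, shares of all genes here are among genes with reads. They comprised 13 of 14 replication genes and 14 of 20 cell division genes. With at least 1 CPM asked in 3 libraries, 13 of the 14 replication genes but 6 of the 20 cell division genes remained, where 67.5% of all genes did. The 7 that failed the default filter were Cdc6, Ccnb2, Aurkb, Plk1, Bub1, Bub1b and Cenpf. The number of members with fewer than 10 counts was 8, 7 and 9 in knockout replicates 1, 2 and 3 and 9, 12 and 2 in wild-type replicates 1, 2 and 3. Wild-type replicate 3, the deepest library (28610649 counts), thus had the fewest. Knockout replicate 3 was nearly as deep (27568002 counts) but had 9, so the number did not follow depth. In bulk RNA, fewer dividing cells and less RNA per dividing cell cannot be told apart.

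**Figure D1:**
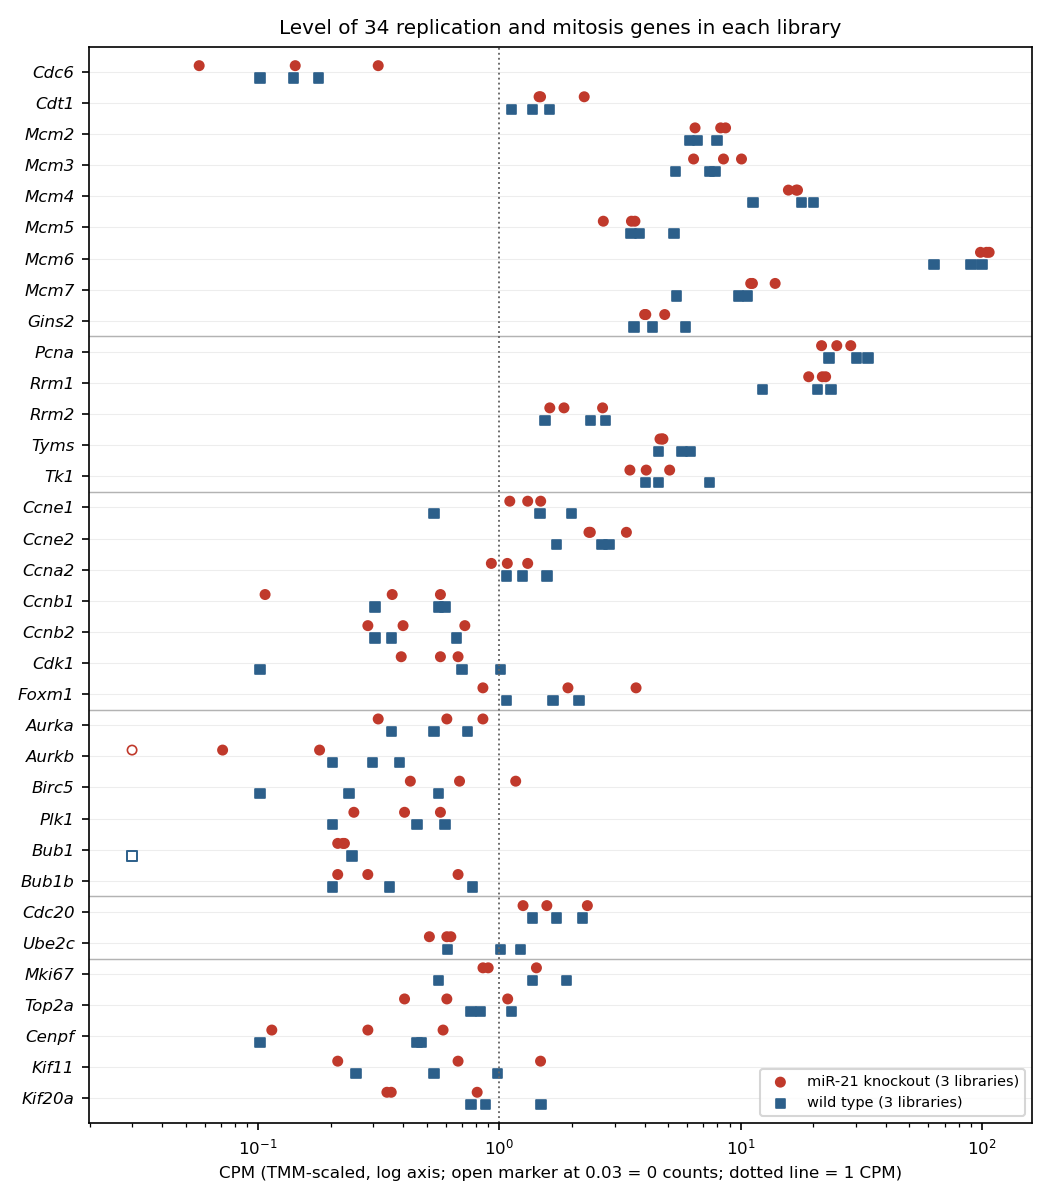
Level of each of the 34 genes in each library, in TMM-scaled CPM on a log axis, with knockout libraries as red circles set above wild-type libraries as blue squares; lines separate the roles and an open marker stands for 0 counts. Replication genes lie mostly to the right of the dotted line at 1 CPM and mitotic kinases mostly to its left, and knockout and wild-type points overlap in nearly every row.

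To compare genes with each other, mean CPM over the 6 libraries was divided by the length in kb of the longest annotated transcript. On this scale the median was 2.18 for the licensing and helicase genes and 3.31 for the clamp and nucleotide genes. It was 0.405 for the cyclins, Cdk1 and Foxm1, 0.136 for the mitotic kinases and checkpoint genes and 0.143 for the chromosome and spindle genes. Over 12696 protein-coding genes with a length the median was 6.03. Of these, 0 lacked counts, so the ranks below are among genes with reads and not among all protein-coding genes. Mcm6 was highest at 21.6 CPM per kb, above 79.5% of protein-coding genes, followed by Pcna at 17.8 and Rrm1 at 5.01. Cenpf at 0.0302, Cdc6 at 0.0324 and Bub1 at 0.0444 CPM per kb were the lowest, above 2.54%, 2.83% and 3.92% of protein-coding genes. Subunits of the MCM ring, which enter it in equal number, differed by up to 19.7-fold per kb, between Mcm6 and Mcm5, and Mcm6 was 4.69-fold above the next, Mcm4.

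**Figure D2:**
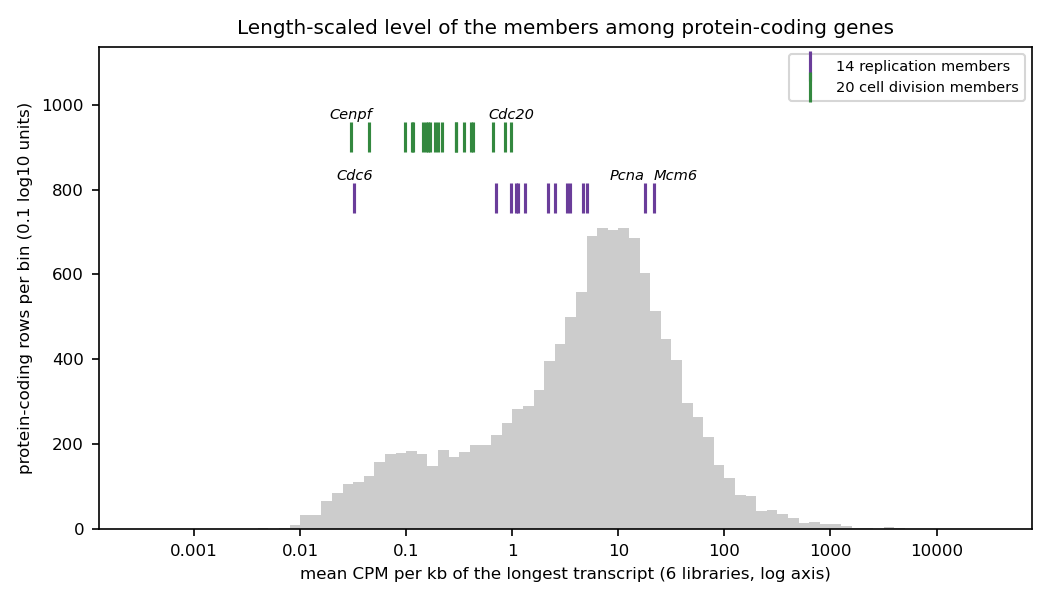
Mean CPM per kb of the longest transcript over the 6 libraries, on a log axis; grey bars count protein-coding genes per bin of 0.1 log10 units and ticks mark the 14 replication genes (purple) and the 20 cell division genes (green). Mcm6 (21.6) and Pcna (17.8) lie to the right of the peak of the distribution, and all 20 cell division genes lie below 1 CPM per kb.

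No member passed the test of genotype. In edgeR's quasi-likelihood test, with Benjamini-Hochberg adjustment over 15185 genes and a threshold of 0.05, 0 of the 27 members tested were called, and 0% of all genes. At an unadjusted p under 0.05 the count was also 0 of 27, where 6.29% of all genes were listed (433 higher and 522 lower in knockout, and 643 higher and 376 lower with library totals in place of TMM). DESeq2 called 0 members, where it called 0.396% of the genes it adjusted, and limma voom called 0 of the 27. Both also listed 0 members at an unadjusted p under 0.05, where DESeq2 listed 921 and limma voom 990 of the 15185 genes. Adjusted p-values of members ran from 0.778 to 0.987 in edgeR. Fitted means in knockout were higher for 12 and lower for 15 of the 27, with a median log2 fold change of -0.05 where the median over all genes was -0.00078. The median standard error was 0.33 for members and 0.18 for all genes, so the intervals of low members take in sizeable changes in either direction. For each of the 27, leaving out 1 library moved the fold change by more than 1.5 times or turned its sign. Fold changes near 0 meet this relative measure easily, and its share over all genes was not computed. The groups did not overlap for 1 of the 27, Mcm7, where 14.5% of all genes did not overlap (6.95% higher and 7.57% lower in knockout).

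**Figure D3:**
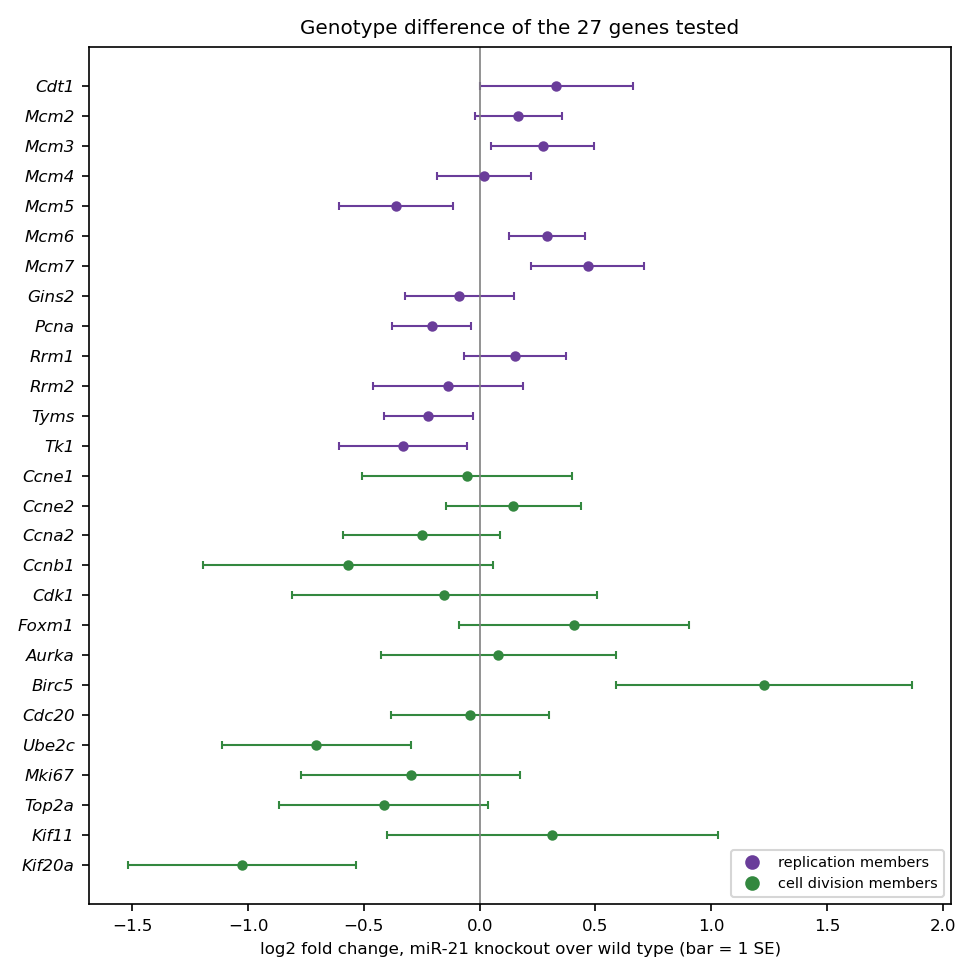
Log2 fold change of knockout over wild type for the 27 genes that passed the expression filter, with 1 standard error on each side, replication genes in purple and cell division genes in green. The standard error is 0.17 for Mcm6 and 0.71 for Kif11, bars are mostly wider for the cell division genes, and none of the genes passed the adjusted threshold.

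The helicase loaders and the helicase came first in the order of replication. Cdc6, which loads the MCM ring, had 1, 7 and 4 counts in knockout replicates 1, 2 and 3 and 3, 2 and 4 counts in wild-type replicates 1, 2 and 3. It was untested and barely detected in both groups. Cdt1, its partner in loading, was at 1.48, 2.25 and 1.46 CPM in knockout and 1.37, 1.12 and 1.61 CPM in wild type. The groups overlapped, with knockout replicate 2 the highest library (log2 fold change 0.33 ± 0.33 SE). Without that library the value was 0.10. The gene overlaps Gm20388, with 125 times its count.

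The MCM subunits were unequal in level, and none passed the test. Mcm6 was at 98.6, 104 and 107 CPM in knockout and 63.3, 100.1 and 90.0 CPM in wild type. Knockout replicate 1 lay below wild-type replicate 2, so the groups overlapped, and wild-type replicate 1 stood lowest by a wide margin. Mcm6 had a log2 fold change of 0.29 ± 0.17 (95% interval -0.08 to 0.67, edgeR adjusted p = 0.778), and 0.12 without wild-type replicate 1. Mcm7 was at 13.9, 11.2 and 11.0 CPM in knockout and 5.41, 9.76 and 10.7 CPM in wild type. Every knockout library lay above every wild-type library, by a small gap except for wild-type replicate 1 (0.47 ± 0.24, 95% interval -0.08 to 1.02; 2-sided exact permutation test p = 0.1, the smallest that 3 against 3 allows). Its value was 0.23 without wild-type replicate 1, and the part of that library's low red cell and marrow sum in the values of Mcm6 and Mcm7 was not tested. Reads of Mcm7 may be shared with Cops6, which overlaps it on the other strand at 8.02 times its count, since the strand setting of the counting is not known.

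Mcm3 was at 8.48, 6.38 and 10.1 CPM in knockout and 5.35, 7.83 and 7.42 CPM in wild type (0.27 ± 0.22). Its highest library was knockout and its lowest was wild-type replicate 1, and the libraries between them mixed. Mcm5 was at 3.64, 2.69 and 3.52 CPM in knockout and 3.80, 3.51 and 5.29 CPM in wild type (-0.36 ± 0.25). Wild-type replicate 3 set much of that distance, and without it the value was -0.16. Mcm2 (0.17 ± 0.19) and Mcm4 (0.02 ± 0.20) had 111 to 232 and 189 to 572 counts over the 6 libraries. Gins2, a subunit of the GINS complex that completes the active helicase, had 71 to 136 counts (-0.09 ± 0.24). Its row overlaps Gm20388, with 44.6 times its count, and held non-whole values in all 6 libraries, which counting each read once for 1 gene would not give.

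None of the clamp and nucleotide genes passed, and knockout and wild-type libraries overlapped for all 5. Pcna was at 21.6, 25.0 and 28.6 CPM in knockout and 33.7, 23.2 and 30.2 CPM in wild type (-0.21 ± 0.17, 95% interval -0.59 to 0.18). Wild-type replicates 1 and 3 were the highest libraries, and wild-type replicate 2 fell inside the knockout range. A near-identical copy, Pcna-ps2, took a mean of 371 counts beside 604 for Pcna, so the split of reads between them is uncertain. Tk1, thymidine kinase, was at 3.47, 5.07 and 4.06 CPM in knockout and 7.43, 4.02 and 4.55 CPM in wild type (-0.33 ± 0.28). That distance rested on wild-type replicate 1, without which it was -0.03, and the gene overlaps Afmid on the other strand at 0.965 times its count. Tyms, thymidylate synthase, was at 4.72, 4.76 and 4.63 CPM in knockout and 6.18, 4.58 and 5.71 CPM in wild type (-0.22 ± 0.19). The knockout libraries were nearly equal and lay just above the lowest wild-type library. Rrm1, the large subunit of ribonucleotide reductase, had 207 to 676 counts (0.15 ± 0.22), and Rrm2, the small subunit whose level limits the enzyme, had 26 to 68 (-0.14 ± 0.32, and 0.04 without wild-type replicate 2).

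Cyclin and Cdk1 transcripts were low in both groups. Ccnb1, a cyclin of mitosis, had 10, 8 and 3 counts in knockout and 10, 6 and 16 in wild type (log2 fold change -0.57 ± 0.63). The value was -1.09 without knockout replicate 1 and -0.08 without knockout replicate 3. Ccnb2, its relative, had 7, 16 and 8 counts in knockout and 6, 6 and 19 in wild type and was untested. The row of the pseudogene Ccnb2-ps held more, with a mean of 14.2 counts beside 10.3 for Ccnb2. Cdk1 had 10, 15 and 11 counts in knockout and 17, 2 and 20 in wild type (-0.15 ± 0.66). Wild-type libraries were thus both its lowest and its highest.

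Cyclins of earlier phases were higher per length, at 0.657 CPM per kb for Ccne1, 0.849 for Ccne2 and 0.405 for Ccna2, beside 0.167 for Ccnb1, 0.295 for Ccnb2 and 0.199 for Cdk1. Ccne1 and Ccne2, the E-type cyclins of S phase entry, had 9 to 42 and 29 to 76 counts (-0.05 ± 0.45 and 0.15 ± 0.29), and Ccna2, the A-type cyclin, 21 to 45 (-0.25 ± 0.34). Ccne2 overlaps Ints8, with 12.5 times its count, and Ccna2 overlaps Exosc9, with 14.2 times. Rows of both held non-whole values in all 6 libraries, which counting each read once for 1 gene would not give, so their levels per length are uncertain. Foxm1, the transcription factor that drives mitotic genes, had 15, 82 and 54 counts in knockout and 28, 21 and 61 in wild type. Knockout held both its lowest and its highest library. Foxm1 had a log2 fold change of 0.41 ± 0.50, which turned to -0.20 without knockout replicate 2.

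Mitotic kinases and checkpoint genes had the lowest median level per kb of the roles. Birc5, which encodes survivin of the chromosomal passenger complex, had 12, 26 and 12 counts in knockout and 4, 2 and 16 in wild type. Its fold change was the highest among the 27 members tested in edgeR (1.23 ± 0.64, 95% interval -0.22 to 2.67, edgeR adjusted p = 0.778), and the groups overlapped through wild-type replicate 3. Leaving out that library gave 2.14, and leaving out knockout replicate 2 gave 0.77. Aurkb, the Aurora kinase of the same complex, had 0, 4 and 2 counts in knockout and 5, 4 and 11 in wild type. In CPM its groups did not overlap, but it was among the untested members. Fitted without a filter on low counts its log2 fold change was -1.71, with an unadjusted edgeR p of 0.0937.

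Bub1, a checkpoint kinase, had 4, 5 and 6 counts in knockout and 0, 0 and 7 in wild type. Bub1b, its relative in the same checkpoint, had 5, 15 and 6 counts in knockout and 13, 4 and 10 in wild type. Plk1, the polo-like kinase of mitotic entry, had 10, 9 and 7 counts in knockout and 10, 4 and 13 in wild type. These 3 were untested, and the groups overlapped for each. Aurka, the Aurora kinase of the spindle poles, had 7 to 21 counts (0.08 ± 0.51).

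Partners of the anaphase-promoting complex showed no called difference. Ube2c, its ubiquitin-conjugating enzyme, had 9, 14 and 17 counts in knockout and 17, 12 and 35 in wild type (log2 fold change -0.71 ± 0.41, edgeR adjusted p = 0.778). In CPM the groups met, since wild-type replicate 2 at 0.610 lay below knockout replicate 2 at 0.629. Tnnc2, on the other strand, overlaps it at 0.971 times its count. Cdc20, its activator, had 22 to 65 counts (-0.04 ± 0.34) and overlaps Elovl1, with 46.4 times its count.

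Chromosome and spindle genes included the usual markers of proliferation. Mki67, which coats mitotic chromosomes, was at 1.42, 0.898 and 0.854 CPM in knockout and 1.37, 0.559 and 1.89 CPM in wild type (-0.30 ± 0.47, 95% interval -1.37 to 0.77). The wild-type libraries spanned the whole knockout range, and the sign turned without wild-type replicate 3 (0.13). Top2a, the topoisomerase that untangles chromosomes, was at 1.08, 0.404 and 0.605 CPM in knockout and 0.832, 0.763 and 1.12 CPM in wild type (-0.42 ± 0.45). Cenpf, a kinetochore protein, had 2, 13 and 8 counts in knockout and 8, 2 and 13 in wild type and was untested. None of the 3 separated the groups.

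Neither spindle motor passed. Kif20a, a motor of cytokinesis, had 6, 18 and 10 counts in knockout and 25, 15 and 25 in wild type. It had the smallest p of all members (log2 fold change -1.03 ± 0.49, 95% interval -2.14 to 0.09, unadjusted p = 0.0664, edgeR adjusted p = 0.778). In CPM, knockout replicate 2 at 0.808 lay among the wild-type values of 1.49, 0.763 and 0.875, and the value was -1.54 without that library and -0.70 without wild-type replicate 1. Its row overlaps Cdc23, with 97.9 times its count, and held non-whole values in all 6 libraries. Kif11, the motor that builds the bipolar spindle, had 26, 15 and 6 counts in knockout and 9, 5 and 28 in wild type (0.31 ± 0.71). Its value was -0.48 without knockout replicate 1 and 0.96 without wild-type replicate 3.

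Summed levels overlapped between the genotypes. The 20 cell division genes summed to 17.2, 18.9 and 14.1 CPM in knockout replicates 1, 2 and 3 and to 17.0, 13.2 and 21.3 CPM in wild-type replicates 1, 2 and 3. The means were 16.7 ± 2.44 CPM in knockout and 17.1 ± 4.04 CPM in wild type (SD, n = 3 each), so wild type held both the lowest and the highest library. The 13 replication genes other than Mcm6 summed to 112, 105 and 117 CPM in knockout and 101, 105.9 and 123 CPM in wild type. With the mean log2 CPM of a gene subtracted from its values, the average over all 34 members was 0.01, 0.13 and -0.15 in knockout and 0.01, -0.31 and 0.30 in wild type. Of the 34 members, 9 were highest in wild-type replicate 3 and 9 in wild-type replicate 1, and 9 were lowest in wild-type replicate 1 and 9 in wild-type replicate 2. Wild-type replicate 1 was the lowest library for Mcm3, Mcm4, Mcm6, Mcm7, Rrm1, Rrm2, Ccne1, Ccne2 and Bub1. For Bub1 it tied with wild-type replicate 2 at 0 counts. It was the highest for Gins2, Pcna, Tk1, Tyms, Ccnb1, Cdk1, Plk1, Bub1b and Kif20a.

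**Figure D4:**
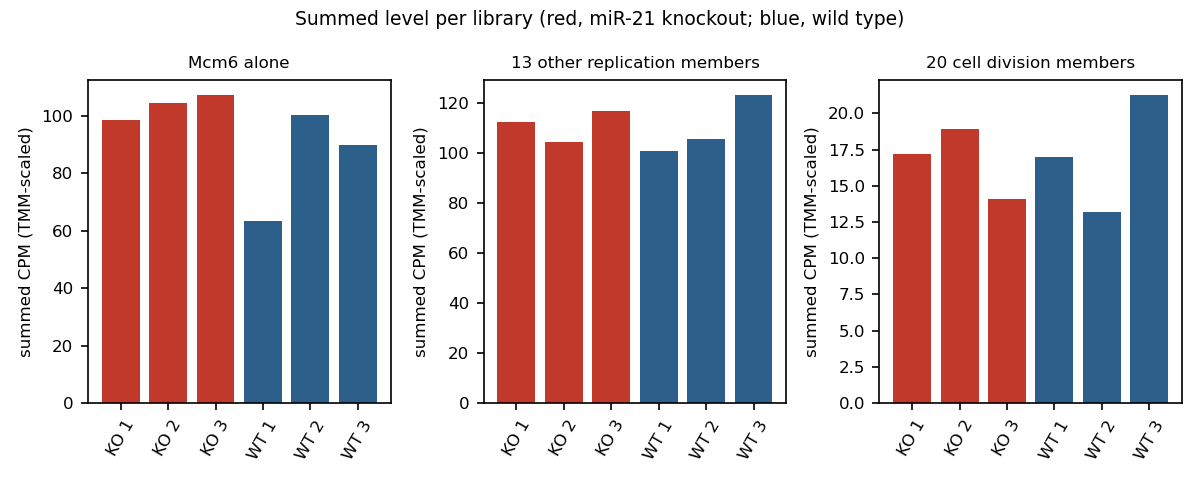
Summed TMM-scaled CPM in each library for Mcm6 (left), the 13 other replication genes (middle) and the 20 cell division genes (right), with knockout libraries in red and wild-type libraries in blue, and axes that start at 0. Mcm6 is lowest in wild-type replicate 1 (63.3 CPM), and the cell division sum is highest in wild-type replicate 3 (21.3 CPM) and lowest in wild-type replicate 2 (13.2 CPM).

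Macrophage markers (9 of 10 matched) summed to 2.62, 10.1 and 5.27 CPM in knockout and 4.93, 7.53 and 10.3 CPM in wild type. Knockout replicate 2 and wild-type replicate 3 were thus the highest of their groups for these markers and for the cell division sum. The remaining libraries went the other way. Knockout replicate 1 was below knockout replicate 3 for these markers but above it for the cell division sum (17.2 against 14.1 CPM). Wild-type replicate 2 was above wild-type replicate 1 for these markers but below it for the cell division sum (13.2 against 17.0 CPM). Lyz2, with the highest mean of these markers, was highest in wild-type replicate 3, while Cd68 was highest in wild-type replicate 1. Adventitial fibroblast markers (8 of 8) summed to 160, 170 and 77.4 CPM in knockout and 131, 131 and 133 CPM in wild type, with knockout replicate 3 the lowest library, as it was within knockout for the cell division sum. Endothelial markers (10 of 10, chiefly Erg and Pecam1) summed to 74.5 to 96.4 CPM in knockout and 72.7 to 82.9 CPM in wild type. The part of other cell types in the levels of the cell division genes was not tested. For the 27 members tested, the variance between libraries of a genotype was a median of 3.78 times that of counting alone, and it was over 2 times for 23 of them. The ratio ran from 0.965 for Ccna2 to 39.8 for Mcm6, the member with the most counts. Its share over all genes was not computed, so it is no trait of these genes in particular.

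Replication and mitotic genes outside the list had levels like those of the members of their kind, and a list of regulators lay higher. Among 51 other replication genes the median level of those with a length was 2.20 CPM per kb, and among 71 other mitotic genes 0.211 CPM per kb. It was 5.38 CPM per kb among 27 E2F, RB and MuvB regulators, a list that also held cell cycle kinases and phosphatases such as Cdk2, Wee1 and Cdc25a. The tests covered 45, 36 and 24 of them. In edgeR 0 passed in each list. Fitted means in knockout were higher for 22 and lower for 23 of the replication genes (median log2 fold change -0.0031), higher for 16 and lower for 20 of the mitotic genes (-0.02), and higher for 15 and lower for 9 of the regulators (0.09).

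From each list the 4 genes with the smallest p are named. Cdc25b, a phosphatase that activates Cdk1, was at 16.7 ± 0.548 CPM in knockout and 9.59 ± 2.17 CPM in wild type (SD, n = 3 each; log2 fold change 0.80 ± 0.18). The groups did not overlap, and it rose in DESeq2 (adjusted p = 0.0362) but did not pass in edgeR (adjusted p = 0.489). Cdc25a, the phosphatase of S phase entry, came from the list of regulators and has been reported as a miR-21 target in human cancer cells. It was at 22.1 ± 0.167 CPM in knockout and 16.9 ± 0.874 CPM in wild type (0.39 ± 0.12, edgeR adjusted p = 0.683). Spc24, a kinetochore subunit, had 4, 8 and 8 counts in knockout and 15, 13 and 31 in wild type (-1.58 ± 0.44), and Sgo2a, a protector of cohesion, had 32, 53 and 60 counts in knockout and 5, 26 and 22 in wild type (1.39 ± 0.46). Ect2, an activator of cytokinesis, had a value of 0.82.

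Among replication genes with the smallest p, Cdc45, a helicase partner (-0.90), Rfc4, a clamp loader (-0.59), and Pole2, a polymerase subunit (-0.86), were lower and Gins3 (0.55) was higher in fitted mean. Among the regulators besides Cdc25a, Tfdp2, a partner of E2F (0.55), Lin9 (0.75) and Lin52 (0.23), both of the MuvB core, were higher in fitted mean. Without wild-type replicate 1 Tfdp2 had a value of 0.33 and Pole2 one of -0.51, and without knockout replicate 1 Lin9 had 0.45. None of these passed in edgeR (adjusted p from 0.489 for Cdc25b to 0.778), and at an unadjusted p under 0.05 the lists held 2 of 45, 4 of 36 and 2 of 24 genes, where the share over all genes was 6.29%.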

How the data were processed

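RNA of 6 libraries, 3 miR-21 knockout and 3 wild type, was extracted with Trizol and prepared with the Illumina TruSeq RNA kit, per the labels' protocols. STAR 2.6, DESeq2 and the build mm10 are named in the submitters' processing notes. The sources used here do not state the counting tool or its strand setting, so reads of overlapping genes cannot be assigned with certainty. The authors deposited 1 table of expected counts per gene, not normalized, and 65.4% of its values were whole to within 0.01. All were rounded here. Values given for 3 counts cover counting error only.

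Genes were kept by the default of filterByExpr (15185 of 20199), scaled by TMM and tested with edgeR 4.0.16 (quasi-likelihood, robust, genotype as the only term; R 4.3.3). Tests were 2-sided and p-values were adjusted by Benjamini-Hochberg across the 15185 genes. A separate exact permutation test over the 6 libraries was run on log2 CPM. Alternatives were other scalings and filters, DESeq2 1.42.0, limma 3.58.1 (voom), unrounded values, a replicate block and each library left out. The edgeR script was tested on simulated data. Log2 CPM used a prior count of 2. Transcript lengths came from GENCODE vM1 (NCBIM37) and gave length only. Matched were 12696 of 14195 protein-coding genes. The 34 members, the other gene lists and the motifs were chosen with earlier results of these data known. Values in every library are given for the 12 members with the smallest edgeR p, for Mki67, Top2a, Pcna, Ccnb1, Cdk1 and Mcm5 and for the 7 members that failed the filter, and from each other list the 4 genes with the smallest p are named. Foxm1 and Kif11 were also given in full, chosen after their values were seen.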

Additional observations from a re-analysis of the deposited data

How the results depend on the processing

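The count of members called was 0 under every setting run, and the smallest adjusted p of any member was 0.576. The count of all genes called was 0 in edgeR and under other scalings, filters, limma voom and unrounded values, 66 in DESeq2, and 0 to 9 with 1 library left out (9 without wild-type replicate 1, 1 without wild-type replicate 2). The cause was not tested. The median log2 fold change of members, -0.05, ran from -0.17 without wild-type replicate 2 to 0.06 without knockout replicate 3, and the count detected was 27 by default, 27 at 0.5 CPM and 19 at 1 CPM. Members had 370 alternative values, of which 27, in 12 genes, changed sign while uncalled. With library totals only, the median over all genes was 0.04 on the log2 scale. Same-numbered libraries did not deviate together (correlations across genes of -0.27, -0.177 and -0.0835), and none correlated best with its own number. With only 3 libraries per group, these values cannot decide whether the numbers pair the samples. With the replicate block 0 genes and 0 members were called, 572 genes had an unadjusted p under 0.05 against 955 without it, and the members' median was 0.03. For the average of centred log2 CPM, the knockout minus wild-type difference was -0.0073 with a prior count of 2, 0.0018 with 0.5, -0.0073 with 5 and 0.039 over the 19 members with a mean of at least 20 counts. Of the members, 15 had a mean under 20 counts. Their variance between libraries of a genotype ran from 1.1 times that of counting alone (Cdc6) to 8.75 times (Kif11). How much depth and variation between libraries each add to their errors was not tested.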

Other observations

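Mcm6 stood above the rest of its ring in every library. Its level per kb was 7.98, 11.3 and 7.30 times the median of the other MCM subunits in knockout replicates 1, 2 and 3 and 7.95, 8.78 and 8.33 times in wild-type replicates 1, 2 and 3. It made up 43.2%, 45.8% and 44.9% of the summed CPM of the 34 genes in knockout and 34.9%, 45.7% and 38.4% in wild type, so a total over the list is weighted towards 1 gene. Non-whole values, which counting each read once for 1 gene would not give, occurred for Mcm6 in 4 of 6 libraries.

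A few mitotic genes outside the 34 were well detected beside the low ones. Over all libraries Anln, an actin-binding protein of the cleavage furrow, averaged 100.6 CPM, Bub3, a checkpoint protein, 65.6 CPM, and Pttg1, the separase inhibitor securin, 52.9 CPM. These 3 were chosen after their values were seen.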
